A study of Mus musculus with 6 samples.

Results

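Transcripts of the cytosolic ribosomal proteins were followed in the retinal pigment epithelium (RPE) of albino mice after damaging light. Members were the probe sets whose platform annotation gave exactly 1 gene symbol, that symbol being Rpl or Rps with a number (and optionally a, x or l), or Rplp0, Rplp1, Rplp2 or Rpsa. S6 kinase genes and pseudogene symbols were left out, and where a gene had more than 1 probe set, the brightest on average was used. This gave 46 genes of 18193 in all, 24 of the large subunit and 22 of the small subunit. Of these, 4 (Rpl3l, Rpl39l, Rps4l and Rps27l) are paralogs of another ribosomal protein gene.

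The RPE is the cell layer that supports the photoreceptors, and it is pigmented except in albino animals. RNA came from BALB/c mice, and all were kept in the dark for 1 week before any exposure. The dark-adapted group (n = 3 arrays) had no light treatment, and the light-damaged group (n = 3 arrays) was exposed for 1.5 h to 6000 lux from white fluorescent lamps and sampled 24 h later. The labels give no genotype beyond the strain, no age, and no word on whether a sample is 1 animal or a pool. The spread behind every p-value here may thus be technical. In the paired fit it is the spread among the pair differences, moderated by limma across genes. The comparison asked how this transcript family differed after light damage. Values are RMA-normalised log2 values per probe set, differences are light-damaged minus dark-adapted with the arrays paired by replicate number, and errors are standard errors unless given as SD.

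A ribosome is built from a large and a small subunit, each a core of ribosomal RNA clad in proteins. The small subunit reads the mRNA, and the large subunit joins the amino acids. Nearly every cell makes these proteins in equal amounts, and their mRNAs are known for a pyrimidine-rich start, through which the mTORC1 kinase and the protein LARP1 control their translation.

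Both replicate 1 arrays differed from the rest in signs of RNA quality: the Gapdh 3′ minus 5′ control difference was 2.45 and 2.48 there and 1.54 to 1.80 in the other 4 arrays. Other quality values moved with light within pairs. The 18S ribosomal RNA controls read 11.38, 13.24 and 13.30 in the dark-adapted and 10.72, 13.06 and 12.98 in the light-damaged arrays, lower in all 3 pairs. The actin 3′ minus 5′ difference was 2.79, 2.25 and 2.15 and then 2.80, 1.83 and 1.76, lower after light in pairs 2 and 3. Mean log2 values of the 12 RPE markers over the 6 arrays ran from 8.04 (Best1) to 14.71 (Ttr), and Rpe65, the isomerase of the visual cycle, had log2 values of 14.14, 14.41 and 14.59 in the dark-adapted and 13.10, 14.01 and 14.21 in the light-damaged arrays. Those of the 15 photoreceptor markers ran from 7.07 (Prph2) to 14.41. Of 15 macrophage and microglia markers, 13 rose and none fell, with a summed linear signal of 26234 to 36033 in dark-adapted and 36638 to 52188 in light-damaged arrays. Of 12 RPE markers 3 fell, with sums of 127425 to 156873 and 90666 to 119328, and of 15 photoreceptor markers 8 fell, with sums of 107440 to 149380 and 76569 to 118670. Of the other lists, Müller glia (7 measured), endothelium (10), neutrophils (7) and pericytes and fibroblasts (11) had 1, 1, 2 and 3 markers that rose and none that fell, and limma called none of 8 inner neuron, 7 lymphocyte and 3 red cell markers. Without the block limma called none of the RPE, photoreceptor or macrophage markers, with 4 and 5 of the first 2 lists lower and 10 of the third higher at an unadjusted p under 0.05. In bulk RNA, fewer cells of a type and less RNA per cell cannot be told apart, and the part of these markers, and of the RNA quality values, in the results below was not tested.

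Ribosomal protein transcripts were higher, by small amounts, across most of the family. In the paired fit, limma called 10 of the 46 members higher and none lower (adjusted p under 0.05), against 3.07% of all genes called higher and 1.92% called lower. The difference was above 0 for 44 members, against 49.9% of all genes. The median difference was 0.26 on the log2 scale, a 1.19-fold level, against -0.0001 over all genes tested. Differences ran from -0.08 for Rps16 to 0.64 for Rps19, so the largest fold among the representing probe sets was 1.55. All 3 pairs were higher for 36 members, against 19.9% of all genes, and for 26 members every light-damaged array lay above every dark-adapted array, against 6.61%. The reverse held for 1 member, Rps16, against 3.72%. At an unadjusted p under 0.05, 29 members were higher and none lower, against 9.48% and 9.57% of all genes. The calls were close to the threshold, with adjusted p-values of 0.0142 to 0.0447 in limma. These calls changed with the block and with the pairs used. Without the block limma called no member, with 0.0495% of all genes called higher and 0 genes lower. At an unadjusted p under 0.05, 17 members were then higher, against 3.96% of all genes, and 1.98% of all genes were lower. With the block limma called 13 without pair 1 (4.55% of all genes), 3 without pair 2 (2.15%) and none without pair 3 (0.879%). The size of the differences changed less, with a member median of 0.30, 0.24 and 0.24 in these 3 fits. A fit with a pair left out also has fewer arrays from which to estimate the spread.

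**Figure D1:**
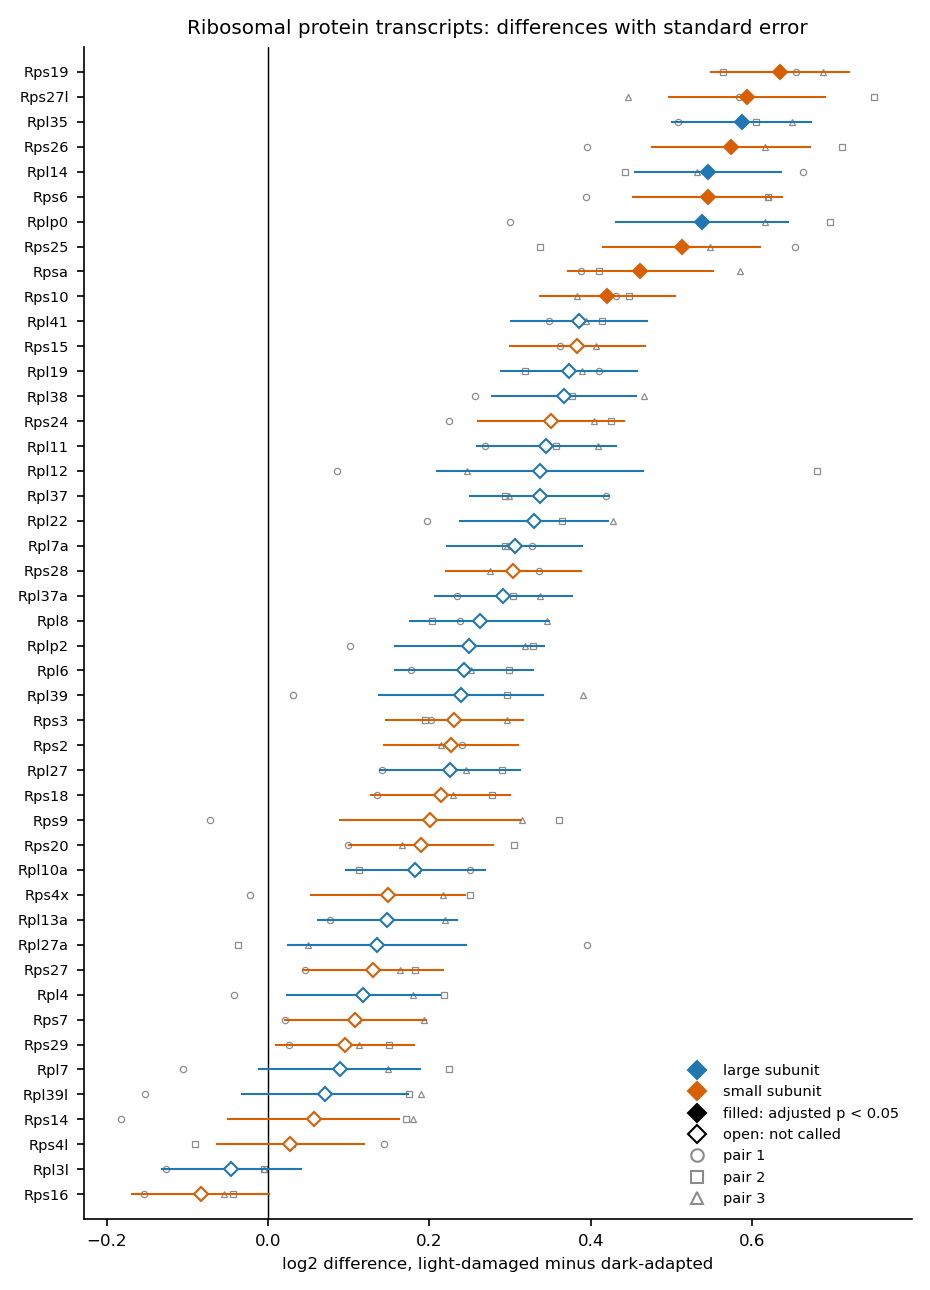
Log2 difference, light-damaged minus dark-adapted, of each of the 46 members (diamonds, with the standard error of the limma fit, n = 3 pairs) and of each pair (grey symbols), coloured by subunit. Filled diamonds mark the 10 members called at an adjusted p under 0.05, and all but Rpl3l and Rps16 lie above 0.

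To show how these genes begin, the annotated start is given for some of them, since the pyrimidine-rich start is the feature the family is known for. Of the 46 members, 40 were found in the RefSeq promoter table of GRCm38.p6, with 48 annotated starts. A C followed by at least 4 pyrimidines, beginning within 10 bases of the start, was present at 27 of these (56.25%) and at 30.7% of all 32851 starts. Among the 10 genes that rose it was found in 7, and among the other 30 in 19. The 30-base windows below hold 10 bases before the annotated start and 20 from it, 5′ to 3′ on the gene's strand, with the tract in capitals. They show 4 of the genes that rose and have a long tract, 2 that rose without one, and Rps16.
Rpl35 at chr2:39005112-39005141, minus strand: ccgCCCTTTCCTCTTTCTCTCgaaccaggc
Rpl14 at chr9:120571507-120571536, plus strand: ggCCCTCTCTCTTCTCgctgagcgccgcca
Rps10 at chr17:27635225-27635254, minus strand: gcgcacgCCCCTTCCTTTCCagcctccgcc
Rps6 at chr4:86857348-86857377, minus strand: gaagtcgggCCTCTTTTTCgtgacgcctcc
Rplp0 at chr5:115559457-115559486, plus strand: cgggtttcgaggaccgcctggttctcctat
Rps25 at chr9:44407704-44407733, plus strand: ccgacatcttagcgaggctgctgtggtcta
Rps16 at chr7:28350679-28350708, plus strand: ttctgtcgtgacgtagcactcaatgcgcct
The tracts span 18 bases in Rpl35, 14 in Rpl14, 13 in Rps10 and 10 in Rps6. In the wider window of 300 bases around the start, on either strand and whether or not it overlapped another motif, CCGGAAG (the core of ETS factor sites) was present at 41.7% of the members' starts and 8.86% of all starts. GGGCGG (a GC box) was present at 24 of the 48 member starts and 35.7% of all, AAGATGGC (read by YY1) at 6.25% and 2.75%, and TATAAA at 10.4% and 13.6%. These matches are a description of the letters. An annotated start can differ from the start used in a tissue.

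In the small subunit, 7 of 22 members rose, against 3.07% of all genes, with a median of 0.23 over all 22. Rps19, which is needed to mature the small subunit RNA and is mutated in Diamond-Blackfan anaemia, had log2 values of 12.004, 11.73 and 11.73 in the dark-adapted and 12.66, 12.29 and 12.42 in the light-damaged arrays. The groups did not overlap, and the replicate 1 array was the highest of each. Its difference was 0.64 ± 0.09, a 1.55-fold rise (limma adjusted p = 0.0142), the largest among the probe sets that represented members.

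Rps26, which lies at the exit of the mRNA channel and is mutated in the same anaemia, stood at 12.05, 11.77 and 11.96 in the dark-adapted and at 12.44, 12.48 and 12.57 in the light-damaged arrays. Every light-damaged value exceeded every dark-adapted value. It rose 1.49-fold (0.57 ± 0.10, limma adjusted p = 0.0292). Rps10, a protein of the small subunit head and another gene of that anaemia, measured 12.29, 12.63 and 12.76 against 12.72, 13.08 and 13.14. Here the groups overlapped, since the replicate 1 arrays were the lowest of both, while the pair differences were 0.43, 0.45 and 0.38. The rise was 1.34-fold (limma adjusted p = 0.0447). Its further probe sets with a suffix gave 0.24 to 0.57, and the probe set without a suffix, the dimmest, gave 0.05. Of 11 anaemia genes listed, which are not all genes of that anaemia, 6 were measured as members. Of these 3 rose, against 10 of all 46 members and 3.07% of all genes. Rps24, Rpl11 and Rps7, at 0.35, 0.35 and 0.11, were not called.

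Rps6, the ribosomal substrate of S6 kinases downstream of mTORC1, had values of 7.77, 7.86 and 8.04 in the dark and 8.16, 8.48 and 8.66 after light. No light-damaged array was as low as a dark-adapted one. Its rise was 1.46-fold (0.54 ± 0.09, limma adjusted p = 0.0292), by a dim probe set, and a dimmer one gave 0.12 ± 0.13. Rps25, a head protein used by some viral RNAs to recruit ribosomes, read 9.63, 9.31 and 9.20 and then 10.29, 9.65 and 9.75. The groups lay just apart, and the light-damaged replicate 1 array was well above the rest. Its difference was 0.51 ± 0.10 (limma adjusted p = 0.0388).

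Rpsa, a small subunit protein also described as a laminin receptor, measured 13.06, 12.93 and 12.90 in the dark-adapted and 13.45, 13.34 and 13.49 in the light-damaged arrays. These groups were clear of each other, with an SD of 0.08 in both. Rpsa rose 1.38-fold (limma adjusted p = 0.0417). Its other probe set, dim at a mean of 4.85, gave -0.004, and with the mean over its probe sets Rpsa was not called. Of 11 members measured among 15 genes listed for the small subunit head, 4 rose, against 3.07% of all genes. These were the head proteins Rps10, Rps19 and Rps25, and Rpsa, which was listed with them. Of the 11, 10 had a difference above 0. The exception was Rps16, measured by a very dim probe set.

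In the large subunit, 3 of 24 members rose, against 3.07% of all genes, with a median of 0.28 over all 24. The split of calls between the subunits was not tested. Rpl35, a protein at the rim of the exit tunnel through which the new chain leaves, had values of 12.83, 12.23 and 12.28 in dark-adapted and 13.34, 12.84 and 12.93 in light-damaged arrays. The replicate 1 array was the highest of its group in both, and the lowest light-damaged array was only just above the highest dark-adapted one. With the pairs taken into account it rose 1.50-fold (0.59 ± 0.09, limma adjusted p = 0.0182). Of its 5 other probe sets, 4 gave differences of 0.64 to 0.75, and the dimmest gave 0.06. Of 9 genes listed for the tunnel and its rim 5 were measured, and Rpl35 was the 1 that rose.

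Rpl14, a protein of the large subunit surface, stood at 7.55, 7.21 and 7.32 in dark-adapted and at 8.21, 7.65 and 7.85 in light-damaged arrays. The groups were apart, though by little. Its rise was 1.46-fold (0.55 ± 0.09, limma adjusted p = 0.0268). Rplp0, the base of the stalk that recruits elongation factors and often a reference gene in PCR, measured 12.12, 11.96 and 12.07 against 12.42, 12.66 and 12.69. All light-damaged arrays were above all dark-adapted arrays, and pair 1 differed least, by 0.30, against 0.70 and 0.62. It rose 1.45-fold (limma adjusted p = 0.0435). Among the other stalk genes measured, Rplp2 had a difference of 0.25 ± 0.09 (limma adjusted p = 0.2164) and Rpl12, which binds the stalk base, 0.34 ± 0.13 (0.2253).

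**Figure D2:**
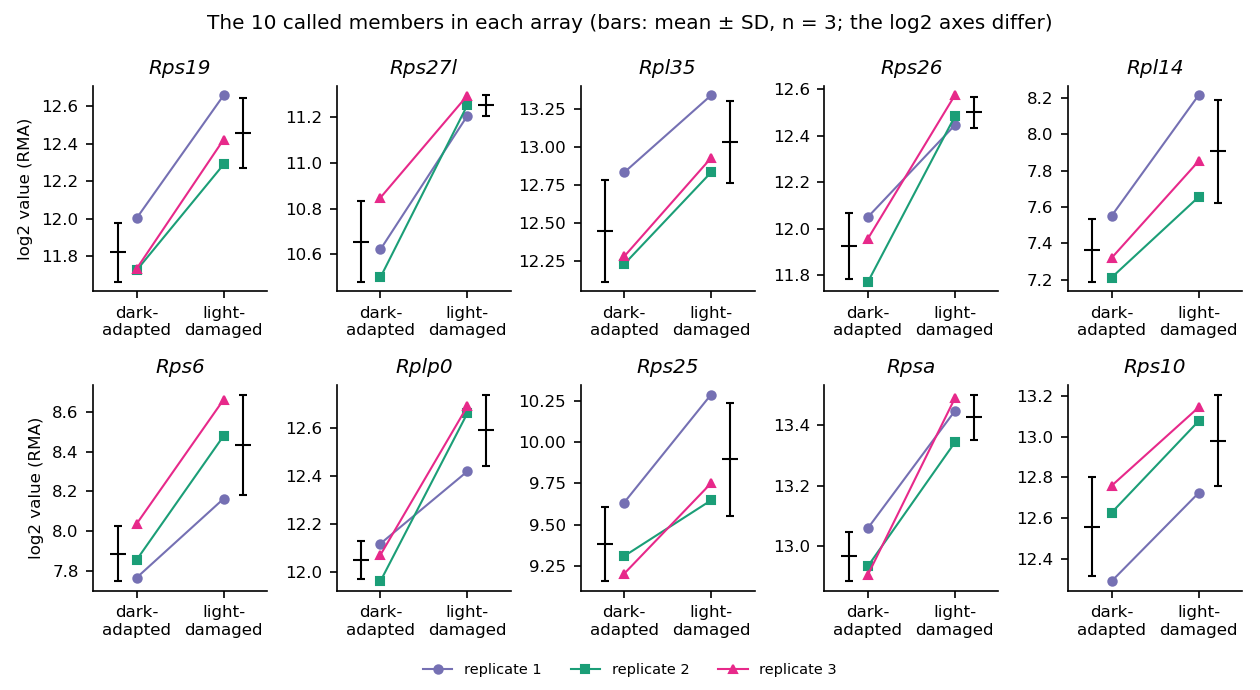
Log2 value of the 10 called members in each of the 6 arrays, lines joining arrays of the same replicate number, with the group mean and SD (n = 3) as black bars. Each panel has its own log2 axis, and every line rises from the dark-adapted to the light-damaged array.

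Of the 4 paralogs, 1 rose. Rps27l, a relative of Rps27 that is known as a p53 target, had values of 10.62, 10.50 and 10.85 in dark-adapted and 11.21, 11.25 and 11.29 in light-damaged arrays. The light-damaged arrays were tightly grouped (SD 0.04) and above all dark-adapted ones. It rose 1.51-fold (0.59 ± 0.10, limma adjusted p = 0.0253), and its 2 other probe sets gave 0.64 and 0.66. Its parent Rps27 had a difference of 0.13 ± 0.09 (0.5103), by a probe set that was dim at 7.43 and 7.56 on average. Whether these differences themselves differ was not tested.

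Rpl3l, a striated muscle form of Rpl3, had means of 5.18 ± 0.32 (SD) and 5.13 ± 0.25, near the lower end of the array's range, with a difference of -0.05 ± 0.09. Rpl39l, known mainly from male germ cells, differed by 0.07 ± 0.10, and its parent Rpl39, a small protein of the exit tunnel, by 0.24 ± 0.10. Rps4l differed by 0.03 ± 0.09 and its parent Rps4x, an X-linked small subunit protein, by 0.15 ± 0.10. None of these 5 passed in limma (adjusted p-values of 0.2800 to 0.9183).

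Most of the other members were above 0 without passing the test. Of the 36 not called, 34 had a difference above 0 and 19 were higher at an unadjusted p under 0.05, while none was lower at that level. Nearest to a call were Rpl41, the smallest ribosomal protein, at 0.39 ± 0.09, and Rps15, a head protein near the decoding site, at 0.38 ± 0.08, both with a limma adjusted p of 0.0570 or 0.0571. Their groups did not overlap: Rpl41 measured 13.76 to 14.01 in dark-adapted and 14.18 to 14.36 in light-damaged arrays, and Rps15 measured 12.13 to 12.44 and 12.51 to 12.80. With the probe set of Rpl41 that has no suffix the difference was -0.032. Rpl11, which binds the inhibitor Mdm2 when ribosome assembly fails, differed by 0.35 ± 0.09 (limma adjusted p = 0.0864), from 12.27 to 12.35 in dark-adapted to 12.54 to 12.74 in light-damaged arrays. Rpl19, Rpl38, Rps24 and Rpl37, named after their values were seen, had differences of 0.37, 0.37, 0.35 and 0.34, and the remaining uncalled members with a difference above 0 ranged from 0.03 to 0.34.

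Rps16, a head protein, was the 1 small subunit member below 0, at -0.08 ± 0.09 (limma adjusted p = 0.6940). The probe set that represented it was the dimmest of all members, near the lower end of the array's range, with means of 4.92 ± 0.02 (SD) and 4.84 ± 0.07. Rps14 and Rpl7, both bright, had small differences of 0.06 and 0.09. Their pair 1 differences were -0.18 and -0.11, and those of pairs 2 and 3 were 0.15 to 0.22.

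Members also differed in the replicate 1 arrays of both groups. The mean of those arrays minus that of the other 4 arrays ran from -0.95 for Rps9 to 0.52 for Rpl35, with a median of -0.08 over the members and 0.07 over all genes. The median member difference was 0.23 in pair 1, 0.30 in pair 2 and 0.30 in pair 3. In pairs 1, 2 and 3 the difference was above 0 for 38, 42 and 44 members, and for 9077, 8227 and 9750 of all 18193 genes. The order of the members was similar between pairs, with Pearson's r across the 46 members of 0.56 for pairs 1 and 2, 0.73 for pairs 1 and 3 and 0.83 for pairs 2 and 3. The points of a pair come from the same arrays, and probe brightness and cross-binding are common to all pairs, so these values are a description.

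**Figure D3:**
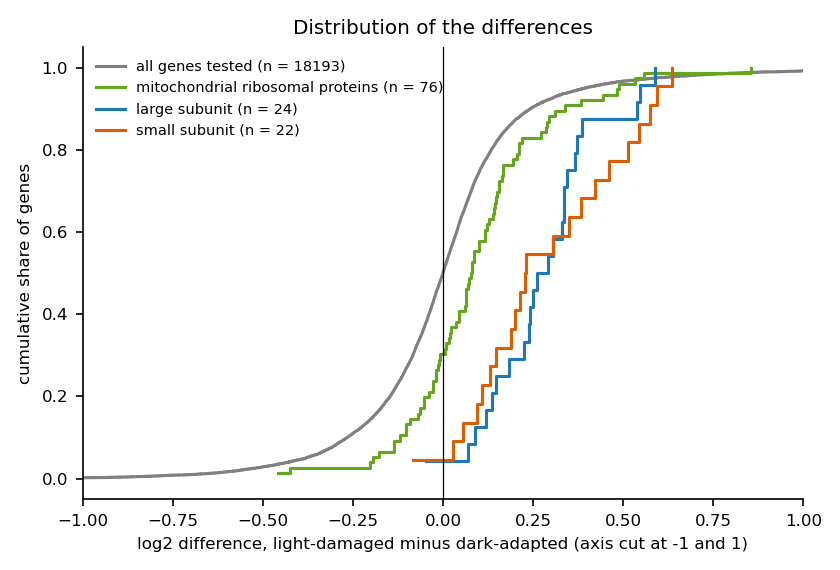
Cumulative share of genes (y axis) by log2 difference, light-damaged minus dark-adapted (x axis, cut at -1 and 1), for all 18193 genes tested, 76 mitochondrial ribosomal proteins and the members of each subunit. The curves of both subunits lie to the right of all genes, with medians of 0.28 and 0.23.

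Ribosomal protein mRNAs are abundant and have many near-identical pseudogene copies, so that a probe can bind several transcripts. A probe set without a suffix represented 15 of the 46 members, against 79.4% of all genes. The others carried a suffix. In 13 it was a_at, which marks probes shared by transcripts of the same gene. In the rest it was x_at (16) or s_at (2), which mark probes that can also bind transcripts of other genes. Of the 15 without a suffix 5 rose, and of the 31 with one 5 rose (3 x_at and 2 a_at), against 3.07% of all genes. The 54 further probe sets of 23 members had a difference above 0 in 46 cases, against 51.65% of all probe sets. Their median was 0.21. In limma over all 45037 probe sets that are not controls, 13 of the 54 were called higher and none lower, against 2.05% of all probe sets called higher and 1.17% lower. Of 14 further probe sets of called members, 13 were above 0, the exception being the dim one of Rpsa. Rpl22, an RNA-binding large subunit protein, had probe sets that disagreed: 0.33 and 0.33 from 2 of them and -0.31 from another, each with an unadjusted p under 0.05.

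Brightness differed among members, and 35 of the 46 had a mean log2 value of at least 10. When only the 3790 genes above that bound were tested, limma called 5 of the 35 higher, against 3.3% of the genes tested, and the members' median was 0.29 against -0.06 over those genes.

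**Figure D4:**
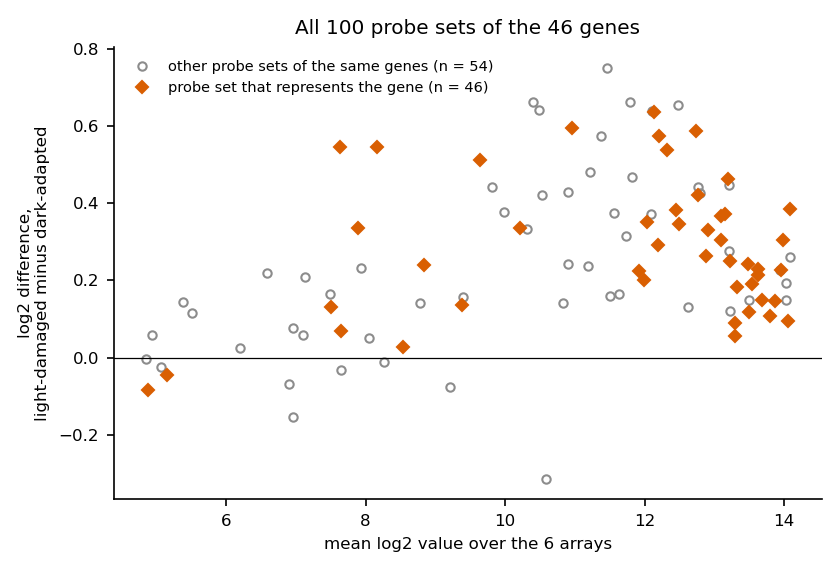
Log2 difference, light-damaged minus dark-adapted (y axis), against the mean log2 value over the 6 arrays (x axis), for all 100 probe sets of the 46 genes. Those that represent a gene are filled, the 54 others are open, and 8 of the others lie below 0.

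Of 56 ribosome biogenesis genes measured, 9 rose (16.1%, against the 3.07% of all genes), none fell, and the median was 0.19. Grwd1, a chaperone of ribosomal protein, read 8.93, 8.44 and 8.57 in the dark-adapted and 9.77, 9.17 and 9.24 in the light-damaged arrays. It rose 1.67-fold (limma adjusted p = 0.00894), with no overlap of the groups. Nhp2, a core protein of the particles that modify ribosomal RNA, rose 1.62-fold, and Wdr12, which matures the large subunit RNA, 1.48-fold. Fbl, the methylase of ribosomal RNA, rose 1.44-fold, and Nop58, its partner, 1.42-fold. The other 4 were Tsr1, Rrp1b, Rrs1 and Imp4. With the probe set of Grwd1 that has no suffix the difference was 0.16. With the mean over all probe sets, Wdr12, Tsr1, Rrs1 and Imp4 were at 0.26, 0.41, 0.30 and 0.21 and were not called. Grwd1, Nhp2, Fbl, Nop58 and Rrp1b were still called in that fit. With replicate number as a random block, Fbl and Nop58 were not called (limma adjusted p = 0.0580 and 0.261), and the rest were. Limma called 4 of the 56 without pair 2, and none without pair 3 or without the block, where 10 were higher at an unadjusted p under 0.05. Of 18 genes of RNA polymerase I and its factors, which make the ribosomal RNA, none rose and Polr1a, its largest subunit, fell by 0.50 ± 0.10 (limma adjusted p = 0.0400), and the median was 0.06. The Polr1a call was lost without the block (limma adjusted p = 0.934), without pair 1 (0.0520), without pair 3 (0.225) and with the mean over all its probe sets, where the difference was -0.22.

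Translation factors were mixed. Of 34 initiation factors measured, 4 rose (11.8%, against 3.07% of all genes), and the median was 0.05. Eif4e2, a cap-binding homologue, rose 1.57-fold and Eif1ax, which helps scan for the start codon, 1.55-fold, but with probe sets without a suffix these gave -0.08 and -0.09. Pabpc1, the poly(A)-binding protein, and Eif3i, a subunit of the scaffold factor, rose 1.35-fold and 1.34-fold. Pabpc1 was at 0.07 with the probe set that has no suffix. Eif3i lost its call when any 1 pair was left out (limma adjusted p-values of 0.0526 to 0.221) and without the block (0.813). Without the block, or without pair 3, limma called none of the 34, and without pair 2 it called Eif4e2 alone. Of 9 elongation factors limma called none, with 1 higher at an unadjusted p under 0.05 and a median of 0.03. Of 16 other mRNAs with a pyrimidine-rich start, 1 rose (Pabpc1) and the median was 0.03.

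Ribosomal protein genes and ribosomal protein-like genes outside the symbol rule were above 0 in 4 of 4 cases, against 49.9% of all genes. None passed in limma, and only 1, Fau, was higher in all 3 pairs. Pair 1 was -0.29 for Rps3a1 and -0.16 for Rpl22l1, and pair 3 was -0.02 for Rpl7l1. Fau, whose product is split into a ubiquitin-like part and a small subunit protein, differed by 0.24 ± 0.08, with an unadjusted p of 0.0274 (adjusted p = 0.1899). Rpl7l1, Rpl22l1 and Rps3a1 differed by 0.21, 0.12 and 0.07. Of 22 genes listed with mTORC1 and S6 kinase signalling, 2 rose (9.09%, against 3.07% of all genes) and 12 were below 0, with a median of -0.02. Eif4ebp1, the repressor of cap-dependent translation that mTORC1 phosphorylates, rose 2.31-fold (limma adjusted p = 0.0089). It read 8.26, 7.97 and 7.99 in the dark-adapted and 9.88, 9.03 and 8.94 in the light-damaged arrays. Myc, on that list as a transcription factor known to drive ribosome production, rose 1.69-fold. Neither was called without the block (limma adjusted p = 0.277 and 0.443), and Myc was not called without pair 3. Ddit4, an inhibitor of mTORC1, had a difference of -0.56 ± 0.13 that did not pass (limma adjusted p = 0.0666).

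**Figure D5:**
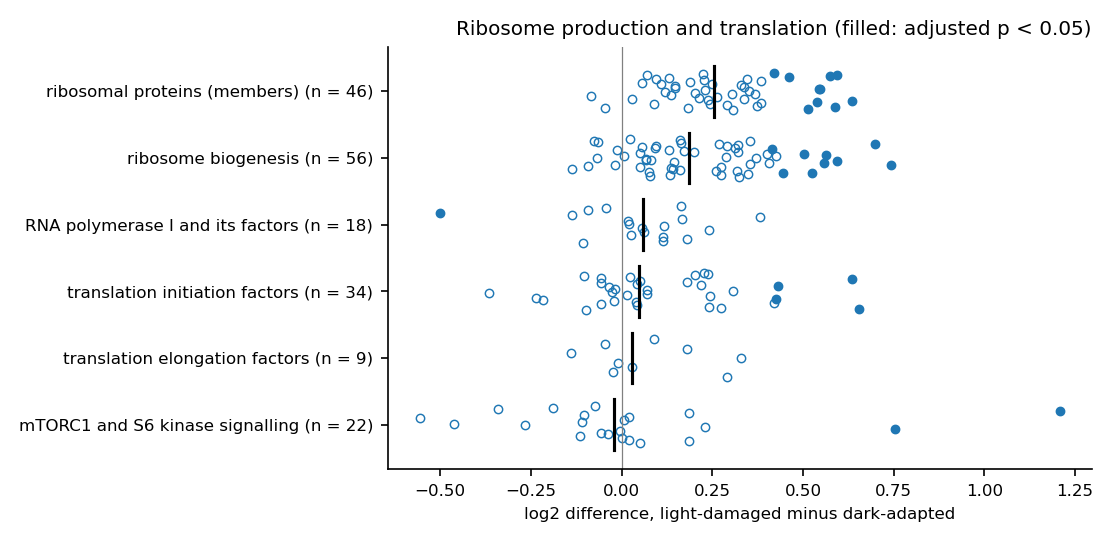
Log2 difference, light-damaged minus dark-adapted (x axis), of each gene (circles, filled where called at an adjusted p under 0.05) in the ribosomal proteins and 5 lists of ribosome production and translation, with the list's median as a bar. Medians are 0.26 for the members, 0.19 for biogenesis and 0.06 or lower for the rest.

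Mitochondrial ribosomal proteins, which serve the separate ribosome of that organelle, gave 5 genes that rose and 1 that fell of 76 measured, with a median of 0.08 and 69.7% above 0. Among 39 proteasome subunits, another abundant complex, 3 rose, and the median was 0.05 with 61.5% above 0. Over all genes 3.07% were called higher and 49.9% were above 0. The difference between these families and the cytosolic ribosomal proteins was not tested.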

How the data were processed

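Per the labels, biotin-labelled RNA of 6 samples (3 in each group) was hybridised to 1-colour Affymetrix arrays. The deposited values are on a log2 scale and were made by the authors with RMA, per the submitters' processing notes; a genome build was not given in the sources used here. They were used as deposited (3.72 to 14.82, array medians 7.43 to 7.48). The number of arrays limits the precision.

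Of 45101 probe sets, 64 controls were left out, 34945 had 1 symbol, 932 several and 9160 none. The brightest probe set on average stood for each of 18193 genes. A linear model in limma 3.58.1 (R 4.3.3) with empirical Bayes compared the groups with replicate number as a fixed block, with two-sided p-values adjusted by Benjamini and Hochberg's method across all genes and called under 0.05. Same-numbered arrays deviated together from their group means (r = 0.89, 0.62 and 0.86 across genes, bound 0.1), which met the rule for taking the numbers as pairs. Crossed numbers gave similar values (0.65 for dark-adapted 2 with light-damaged 3, 0.61 for dark-adapted 3 with light-damaged 2), and the differences of replicate 3 minus 2 correlated at 0.33 between the groups. The pairing of replicates 2 and 3 thus has less support than that of replicate 1, and the labels name no shared animal or day.

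The members and lists were chosen with earlier results of these data known. Genes named were the members called in all 3 pairs, the smallest p-values up to 12 members, l-suffixed paralogs and their parents, Rplp0, Rplp1, Rplp2, Rpsa, Rpl5, Rpl11, Rps6 and Rps19 where measured, the extremes of each subunit, all ribosomal proteins outside the rule, and up to 3 genes of each other list by p. Others (Rps7, Rps9, Rps14, Rps24, Rpl7, Rpl12, Rpl19, Rpl22, Rpl37, Rpl38, and further called genes of the lists) were chosen after their values were seen. Alternatives covered the block, each replicate left out, scaling, a pseudocount of 16, filters on the mean value, the choice of probe set, and limma's options. Starts are those of RefSeq on GRCm38.p6.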

Additional observations from a re-analysis of the deposited data

How the results depend on the processing

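No alternative called a member lower. Against 10 members called higher, limma called 0 without the replicate block (smallest adjusted p = 0.2489), 16 with it as a random block (3.33% of all genes), 21 with array weights (6.04%), 5 of 35 among genes with a mean log2 value of at least 10 and 5 of 25 with probe sets without a suffix (2.39%). Leaving out each replicate in turn gave 0 to 13, with 3 (Rpl14, Rps19 and Rps25) without replicate 2 and 0 without replicate 3. The other 6 alternatives gave 8 to 12. Rps19 and Rpl14 were each called in 11 of 13 alternatives that measured them, and Rps10 in 6 of 14. The median over members was 0.24 to 0.30, except 0.21 with probe sets without a suffix, where the large and small subunit medians were 0.23 and 0.13. With those probe sets, of the members, Rpl41 was at -0.032 and Rps3 at -0.077, and the called Rps10 and Rpl35 at 0.052 and 0.059. Of other genes Eif1ax was at -0.086 and Eif4e2 at -0.080. Over the pairs left out in turn, Rps4l ranged from -0.030 (without replicate 1) to 0.087, and Rps3a1 from -0.037 (without replicate 2; -0.0067 without replicate 3) to 0.250. Rps4x was at -0.0027 as a mean over all probe sets. None of these values passed in limma, and the cause was not tested.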

Other observations

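Probe sets annotated to several genes, at least 1 of them a cytosolic ribosomal protein symbol, were counted after the data had been seen, without naming a gene for any of them. There were 110, covering 43 ribosomal protein symbols, of which 28 had no probe set of their own. The difference was above 0 in 101 of the 110, against 51.65% of all probe sets. In all 3 pairs 81 were higher, against 19.9% of all genes. In limma over all probe sets 8 were called higher and none lower, against 2.05% of all probe sets called higher. The median difference was 0.22, with a range of -0.36 to 0.73.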
